A study of Mus musculus with 6 samples.

Results

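*Cd109* and 9 genes of the transforming growth factor beta (TGF-beta) pathway were followed in the RNA of splenic T follicular helper (Tfh) cells. The 10 genes are 1 ligand (*Tgfb1*), both signaling receptors (*Tgfbr1* and *Tgfbr2*), the receptor-activated Smads (*Smad2* and *Smad3*), the shared Smad (*Smad4*), the inhibitory Smad (*Smad7*), a pair of nuclear corepressors (*Ski* and *Skil*) and the co-receptor gene *Cd109*. They were taken by symbol from the 53379 genes of the count files, and all 10 were among the 14555 genes that passed the filter on low counts. *Cd109* was chosen by its difference in level between the groups compared here, so its values are given as a description without a test, and it passed the filter through the group in which it was high. The other 9 were listed for their place in the pathway.

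Tfh cells came from the spleens of 3 CTL and 3 *Prdm1*-CKO female mice, aged 6 to 8 weeks, on day 7 after immunization with the hapten-protein conjugate NP-CGG in complete Freund's adjuvant. *Prdm1*-CKO mice carried *Prdm1* fl/fl and CD11c-Cre, which removes Blimp-1 from CD11c+ cells, chiefly dendritic cells. CTL mice carried either *Prdm1* fl/fl without Cre or wild-type *Prdm1* with CD11c-Cre, and the labels do not say which of these each CTL mouse had. The labels call the second group KO in the titles and KD in the genotype field. Each mouse gave 1 Smart-seq2 library of live TCRβ+ CD4+ CXCR5+ PD1+ cells, and the gate did not remove FOXP3+ follicular regulatory cells.

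Total counts lay between 7147601 and 14177558 in CTL mice and between 9753574 and 16973392 in *Prdm1*-CKO mice. Levels are given as CPM, counts scaled to library size with TMM factors, and 3 counts corresponded to between 0.169 and 0.444 CPM depending on the library. CTL replicate 2 stood apart, with a correlation across genes that averaged 0.875 with the remaining mice, against 0.923 to 0.944 for the rest. Tfh markers were present in every mouse, with a summed level of 2519 to 3349 CPM in CTL and 2421 to 2663 CPM in *Prdm1*-CKO for *Cd4*, *Cd3e*, *Cxcr5*, *Pdcd1*, *Bcl6*, *Icos*, *Il21* and *Sh2d1a*. *Foxp3* was present as well, at 134 to 182 CPM. *Prdm1* itself stood at 28.9, 30.0 and 27.5 CPM in CTL and 30.2, 30.8 and 30.9 CPM in *Prdm1*-CKO. Because the deletion is driven in CD11c+ cells, the *Prdm1* level in T cells does not check the labels.

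TGF-beta is secreted in a latent form and is set free by integrins and other activators. The active ligand binds the type II receptor, which recruits and phosphorylates the type I receptor. The type I receptor then phosphorylates *Smad2* and *Smad3* at their carboxy-terminal serines, and these enter the nucleus together with *Smad4*. *Smad7* blocks this step at the receptor, and *Ski* and SnoN (the protein of *Skil*) hold Smad complexes in a repressed state. In T cells the pathway is known for restraining activation and effector differentiation and for promoting *Foxp3* expression. CD109 is a membrane-anchored protein of the thioester-containing alpha-2-macroglobulin family that binds TGF-beta and its receptors and lowers their signaling in several cell types.

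These coding stretches are shown because they carry the features named above, and they were read from the GENCODE M21 transcripts on GRCm38, 5′ to 3′ on the coding strand. The *Cd109* stretch, in exon 23 of 33 at chr9:78691221-78691283 on the plus strand, has the 5 codons of the thioester motif in capitals:
Cd109: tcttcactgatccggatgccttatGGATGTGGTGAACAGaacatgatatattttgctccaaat
The *Tgfb1* stretch, in exon 5 of 7 at chr7:25697211-25697270 on the plus strand, has in capitals the 4 codons of the furin motif, after which the latency peptide is cut from the mature ligand:
Tgfb1: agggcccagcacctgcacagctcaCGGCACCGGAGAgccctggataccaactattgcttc
The *Smad3* stretch is the end of the coding sequence, in exon 9 of 9 at chr9:63650265-63650300 on the minus strand, with the 4 codons that hold the serines phosphorylated by the type I receptor in capitals:
Smad3: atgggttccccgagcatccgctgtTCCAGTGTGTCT

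To compare levels between genes, CPM were divided by the length of all annotated exons of the gene, and these values are called CPM per kb. *Tgfbr2* was the most abundant of the 10 genes, with a mean over the 6 mice of 29.9 CPM per kb, followed by *Smad3* at 15.3, *Ski* at 10.6 and *Tgfbr1* at 8.84 CPM per kb. *Smad2* at 7.58, *Smad4* at 7.46 and *Skil* at 6.12 CPM per kb came next. *Tgfb1* at 2.15 and *Smad7* at 1.76 CPM per kb were lower, and *Cd109* at 0.314 CPM per kb was the lowest. Among the protein-coding genes tested, *Tgfbr2* lay at the 85.4th percentile of level per kb, *Smad3* at the 71.6th, *Tgfb1* at the 24.1st, *Smad7* at the 21.0th and *Cd109* at the 3.84th.

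**Figure D1:**
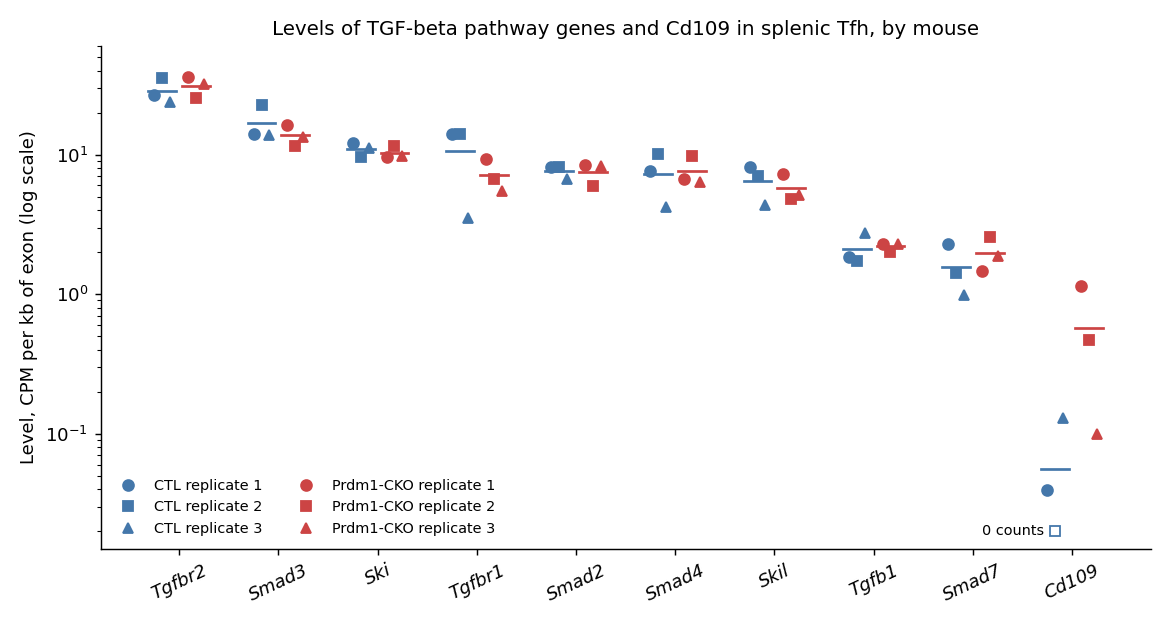
Level of each gene in CPM per kb of exon on a log axis, 1 point per mouse, with horizontal lines at the group means. The 6 values of *Tgfbr2* lie above those of every other gene, the values of *Smad3* and the 5 genes from *Ski* to *Skil* intermix, and only *Cd109* has a mouse with 0 counts, drawn as an open square at the foot of the axis.

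Most neighbours in this order did not differ beyond the spread over mice. The ranges of the 6 mice did not overlap between *Tgfbr2* and *Smad3* (a ratio of means of 1.95) or between *Skil* and *Tgfb1* (2.85), and each of these orders held in 6 of 6 mice. *Smad7* lay above *Cd109* in 6 of 6 mice with a ratio of means of 5.62, although the ranges overlapped across mice. The other 6 neighbouring pairs overlapped, and their order held in 3 to 5 of 6 mice. *Smad2* and *Smad4* were the closest pair, with a ratio of means of 1.02. With the longest transcript as the length, *Skil* moved from place 7 to place 5, while the places of *Tgfbr2*, *Smad3*, *Ski*, *Tgfbr1*, *Tgfb1*, *Smad7* and *Cd109* stayed as they were.

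*Cd109* (ENSMUSG00000046186, chromosome 9 from 78615546 to 78716253, plus strand) was detected with 4, 0 and 6 counts in CTL replicates 1 to 3 and with 140, 32 and 10 counts in *Prdm1*-CKO replicates 1 to 3. In CPM these were 0.274, 0 and 0.888 in CTL and 7.89, 3.25 and 0.685 in *Prdm1*-CKO. *Prdm1*-CKO replicates 1 and 2 lay above all CTL mice, whereas *Prdm1*-CKO replicate 3 lay below CTL replicate 3, so the groups overlapped. The mean was 3.94 ± 3.65 CPM (SD, n = 3) in *Prdm1*-CKO. The CTL mean was 0.387 ± 0.455 CPM (SD, n = 3), which gave a ratio of means of 10.2 and a fitted log2 fold change of 3.40. This is the difference for which the gene was chosen.

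**Figure D2:**
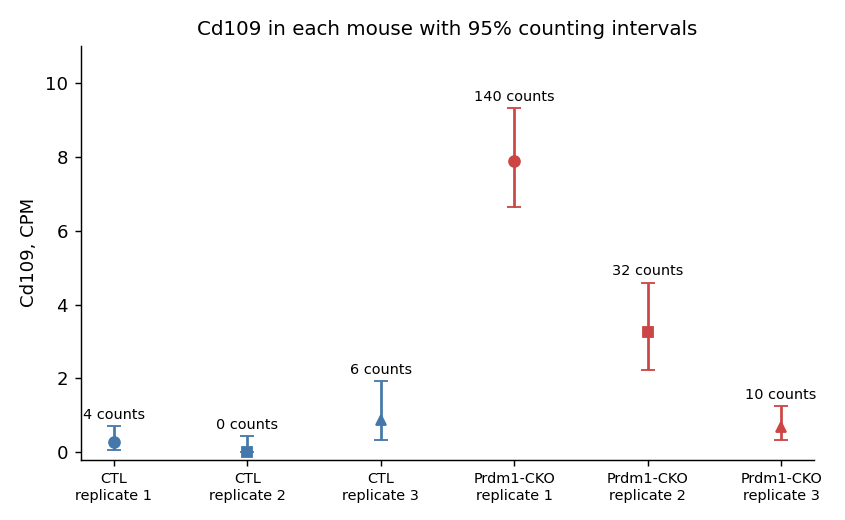
*Cd109* in CPM for each mouse, with bars for the exact 95% Poisson interval of the counts, which covers counting error only. *Prdm1*-CKO replicates 1 (140 counts) and 2 (32 counts) stand above the other 4 mice, whose intervals overlap one another.

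*Prdm1*-CKO replicate 1 held 76.9% of the 182 *Cd109* counts of its group. Without it, the ratio of mean CPM fell from 10.2 to 5.09, and *Cd109* no longer passed the filter. Leaving out any other mouse gave ratios from 6.79 (without CTL replicate 2) to 28.8 (without CTL replicate 3), and the latter also moved the ratio by more than 1.5 times. Within the *Prdm1*-CKO group, replicate 1 was 2.42-fold above replicate 2 (95% interval 1.64 to 3.68, from the counts alone), and replicate 2 was 4.75-fold above replicate 3 (2.28 to 10.8). *Prdm1*-CKO replicate 3 and CTL replicate 3 could not be separated at this depth, with a ratio of 0.771 (0.254 to 2.58). Molecules were not counted with unique identifiers, so such intervals cover counting error only.

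CD109 is also found on platelets and endothelial cells, and in bulk samples a change in the number of such cells and a change in RNA per cell cannot be told apart. The platelet and megakaryocyte list (*Pf4*, *Ppbp*, *Itga2b*, *Gp1ba*, *Gp9* and *Itgb3*) summed to 18.9 to 63.5 CPM in CTL and 31.9 to 47.1 CPM in *Prdm1*-CKO. Over the 6 mice *Itgb3* was at 14.2 to 44.2 CPM, *Itga2b* at 2.66 to 26.4, *Gp1ba* at 0 to 2.07, *Pf4* at 0 to 0.411, *Gp9* at 0 to 0.407 and *Ppbp* at 0 to 0.137 CPM, and the part of such cells in the *Cd109* level was not tested. Endothelial and stromal markers (*Pecam1*, *Cdh5*, *Kdr*, *Col1a1*, *Col3a1* and *Pdgfrb*) summed to 148 to 213 CPM in CTL and 186 to 216 CPM in *Prdm1*-CKO, nearly all from *Pecam1*, which T cells also express, and *Col3a1* had 0 counts in every mouse. *Kdr* stood at 0.548, 0 and 0 CPM in CTL and 0.676, 0 and 0 CPM in *Prdm1*-CKO. *Cdh5* was at 0.411, 0.237 and 0 CPM in CTL and 0, 1.63 and 0 CPM in *Prdm1*-CKO. The 2 mice with the most *Cd109* thus held the highest value of *Kdr* (replicate 1, 12 counts) and of *Cdh5* (replicate 2, 16 counts). The part of endothelial cells in the *Cd109* level was not tested.

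*Tgfb1* (ENSMUSG00000002603, chromosome 7 from 25687002 to 25705077, plus strand) encodes the main TGF-beta ligand of lymphocytes. Its level was 9.32, 8.65 and 13.9 CPM in CTL and 11.4, 10.2 and 11.6 CPM in *Prdm1*-CKO. The 3 *Prdm1*-CKO mice lay inside the CTL range. Its log2 fold change was 0.06 (standard error 0.32, 95% interval -0.67 to 0.80, adjusted p = 0.996 from edgeR), so that a difference of 2-fold in either direction lay outside the interval.

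*Tgfbr2* (ENSMUSG00000032440, chromosome 9 from 116084293 to 116175360, minus strand) encodes the ligand-binding type II receptor. It was at 220, 287 and 195 CPM in CTL and 294, 210 and 260 CPM in *Prdm1*-CKO, from 1319 to 5216 counts. Both groups covered much the same range. The log2 fold change was 0.12 (standard error 0.20, 95% interval -0.33 to 0.57, adjusted p = 0.996 from edgeR).

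*Tgfbr1* (ENSMUSG00000007613, chromosome 4 from 47353222 to 47414931, plus strand) encodes the type I receptor, the kinase that acts on *Smad2* and *Smad3*. Its level was 91.5, 92.4 and 22.9 CPM in CTL and 60.5, 43.5 and 35.8 CPM in *Prdm1*-CKO. CTL replicates 1 and 2 lay above all *Prdm1*-CKO mice and CTL replicate 3 lay below all of them. The value of CTL replicate 3 rested on 155 counts (exact 95% interval 132 to 181), so its distance from the others exceeds counting error. The log2 fold change was -0.57 (standard error 0.47, 95% interval -1.65 to 0.52, adjusted p = 0.996 from edgeR), with the widest interval of the 9 genes. Without CTL replicate 3 it was -0.97, with an unadjusted p of 0.00514 and an adjusted p of 0.760 from edgeR. Over all 11 alternative fits it ranged from -0.97 to -0.31 with adjusted p from 0.760 to 1.00.

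*Smad2* (ENSMUSG00000024563) stood at 71.9, 71.5 and 58.3 CPM in CTL and 73.5, 52.1 and 72.1 CPM in *Prdm1*-CKO. One mouse of each group, CTL replicate 3 and *Prdm1*-CKO replicate 2, was low and the other 4 lay within 71.5 to 73.5 CPM. Its log2 fold change was -0.03 (standard error 0.20, 95% interval -0.49 to 0.43, adjusted p = 0.998 from edgeR).

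*Smad3* (ENSMUSG00000032402, chromosome 9 from 63646767 to 63757994, minus strand) was at 78.3, 126 and 76.3 CPM in CTL and 90.6, 64.0 and 74.2 CPM in *Prdm1*-CKO. The highest value came from CTL replicate 2, and the other 5 mice of both groups were interleaved. A log2 fold change of -0.29 (standard error 0.24, 95% interval -0.85 to 0.26, adjusted p = 0.996 from edgeR) left a 2-fold difference outside the interval.

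*Smad4* (ENSMUSG00000024515, chromosome 18 from 73639009 to 73703780, minus strand), the partner of both receptor-activated Smads, was at 28.4, 37.4 and 15.5 CPM in CTL and 24.8, 36.4 and 23.6 CPM in *Prdm1*-CKO. CTL held both the highest and the lowest mouse. The log2 fold change was 0.05 (standard error 0.35, 95% interval -0.74 to 0.85, adjusted p = 0.997 from edgeR).

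*Smad7* (ENSMUSG00000025880, chromosome 18 from 75367529 to 75395935, plus strand), the inhibitory Smad and itself a target of the pathway, had the lowest level of the 9 genes. It was at 10.3, 6.40 and 4.44 CPM in CTL and 6.65, 11.6 and 8.42 CPM in *Prdm1*-CKO, from 30 to 151 counts. CTL replicate 1 lay among the *Prdm1*-CKO mice and CTL replicates 2 and 3 lay below them. Its log2 fold change of 0.32 (standard error 0.44, 95% interval -0.68 to 1.32, adjusted p = 0.996 from edgeR) was the highest of the 9 genes, and a 2-fold higher level stayed inside the interval.

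*Ski* (ENSMUSG00000029050, chromosome 4 from 155154075 to 155222592, minus strand) varied least among mice, with a highest value 1.27 times the lowest. It stood at 67.8, 53.3 and 61.7 CPM in CTL and 53.8, 64.3 and 54.4 CPM in *Prdm1*-CKO, and the mice of both groups were mixed. A log2 fold change of -0.09 (standard error 0.18, 95% interval -0.50 to 0.33, adjusted p = 0.996 from edgeR) was estimated.

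*Skil* (ENSMUSG00000027660, chromosome 3 from 31095058 to 31122577, plus strand), a target of the pathway as well as a corepressor, was at 79.1, 68.1 and 42.2 CPM in CTL and 70.5, 46.4 and 49.6 CPM in *Prdm1*-CKO. CTL replicate 1 was the highest and CTL replicate 3 the lowest of the 6 mice. The log2 fold change was -0.19 (standard error 0.28, 95% interval -0.82 to 0.44, adjusted p = 0.996 from edgeR).

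Of the 9 pathway genes other than *Cd109*, 0 differed at an adjusted p under 0.05 in edgeR's quasi-likelihood test, and 0% of all 14555 genes did. At an unadjusted p under 0.05, 0 of the 9 were called in edgeR and 0 in DESeq2's Wald test, with all 6 mice, where edgeR called 0.928% of all genes higher and 1.42% lower. None of the 9 had groups that did not overlap (0 genes), against 8.42% of all genes tested. On the log2 scale 4 of the 9 lay above 0 and 5 below, with a median of -0.03 against 0.01 over all genes. For 7 of the 9, all but *Tgfbr1* and *Smad7*, the 95% interval of the difference excluded a 2-fold change in both directions, as it did for 48.2% of all genes tested.

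**Figure D3:**
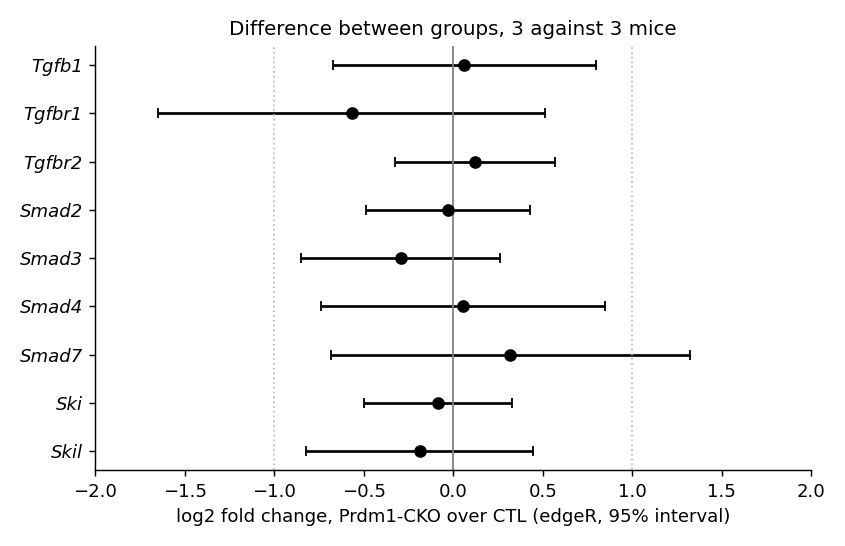
Log2 fold change of *Prdm1*-CKO over CTL for the 9 pathway genes (points), for 3 against 3 mice, with dotted lines at 2-fold in each direction. Bars are 95% intervals derived from edgeR's F test. Every interval includes 0, and the intervals of *Tgfbr1* (to -1.65) and *Smad7* (to 1.32) reach past 2-fold.

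The 9 genes also varied between mice of the same group. CTL replicate 3, which had the fewest counts, was the lowest of the 6 mice in 5 of the 9 genes (*Tgfbr1*, *Tgfbr2*, *Smad4*, *Smad7* and *Skil*) and the highest in *Tgfb1*. CTL replicate 2 was the highest in *Tgfbr1*, *Smad3* and *Smad4* and the lowest in *Tgfb1* and *Ski*. *Prdm1*-CKO replicate 3 was neither highest nor lowest in any of them. The highest value over the lowest ranged from 1.27 for *Ski* to 4.03 for *Tgfbr1*.

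Ratios of levels per kb within each mouse place the genes of a step side by side. *Tgfbr1* over *Tgfbr2*, the type I over the type II receptor, was 0.521, 0.403 and 0.147 in CTL and 0.258, 0.260 and 0.172 in *Prdm1*-CKO. The type II receptor was the more abundant in all 6 mice, and the 3 *Prdm1*-CKO ratios lay inside the CTL range. *Smad3* exceeded *Smad2* in all 6 mice, with ratios of 1.73, 2.79 and 2.08 in CTL and 1.95, 1.95 and 1.63 in *Prdm1*-CKO. By the length of all annotated exons, *Ski* exceeded *Skil* in all 6 mice, by 1.33 to 2.55 times. That order in each mouse rests on the length used. Mean CPM before division by length were 59.2 for *Ski* and 59.3 for *Skil*. *Skil* has 9694 bp of annotated exons but 6717 bp in its longest transcript, against 5562 and 5522 bp for *Ski*. *Smad7* over *Smad3*, the inhibitory over an activating Smad, was 0.162, 0.0622 and 0.0713 in CTL and 0.0900, 0.222 and 0.139 in *Prdm1*-CKO, with CTL replicate 1 above 2 of the 3 *Prdm1*-CKO mice.

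**Figure D4:**
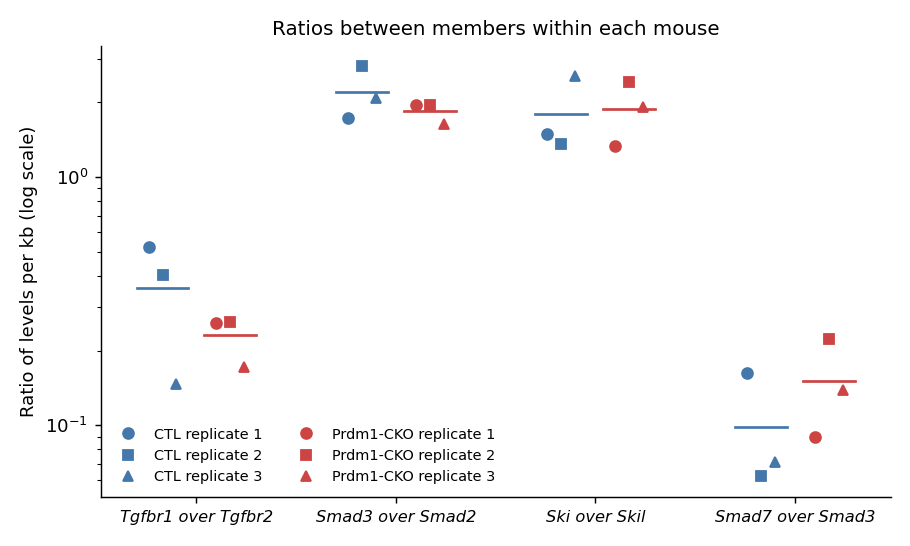
Ratios of levels per kb between pairs of genes in each mouse on a log axis, with lines at the group means. *Tgfbr1* over *Tgfbr2* lies below 1 and *Smad3* over *Smad2* above 1 in every mouse, and the groups overlap in all 4 ratios.

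The rest of the pathway was taken from 5 lists with 57 genes, of which 41 passed the filter on low counts, 16 did not, and 5 (*Itgb6*, *Inha*, *Inhbb*, *Bmpr1b* and *Smad9*) had 0 counts in every mouse. In these lists 1 gene was higher in *Prdm1*-CKO and 0 were lower at an unadjusted p under 0.05, and 0 passed adjustment over all genes, by edgeR. At that unadjusted threshold edgeR called 0.928% of all genes tested higher and 1.42% lower. The median log2 fold change of the 41 pathway genes was -0.05, 17 of the 41 lay above 0, and in 3 of the 41 the groups did not overlap. That share is close to the 8.42% of all genes. The 1 gene higher was *Zfyve9*, which encodes SARA, the anchor that presents *Smad2* and *Smad3* to the receptor.

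*Zfyve9* stood at 10.5, 7.94 and 9.32 CPM in CTL and 15.1, 15.8 and 15.2 CPM in *Prdm1*-CKO. Every *Prdm1*-CKO value exceeded every CTL value. The log2 fold change was 0.73 (standard error 0.28, 95% interval 0.09 to 1.36), with an unadjusted p of 0.0300 and an adjusted p of 0.996 from edgeR. Over the 11 alternative fits its log2 fold change stayed between 0.61 and 0.82, and the unadjusted p lay between 0.0180 and 0.0768. It passed 0.05 in none of the fits that left out a *Prdm1*-CKO mouse, with p of 0.0741, 0.0713 and 0.0768 without replicates 1, 2 and 3.

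Among the ligands and their activators, 7 of 16 were tested and 0 passed in either direction. *Tgfb3*, another ligand, was at 6.03 to 13.3 CPM over the 6 mice, whereas *Tgfb2* stayed at or below 0.822 CPM. *Nrros*, which tethers latent TGF-beta on myeloid cells, was at 164 to 235 CPM, and *Lrrc32*, whose protein GARP does so on regulatory T cells, at 22.2 to 71.9 CPM. *Itgb8*, whose integrin frees the ligand, had the smallest p of the list (unadjusted p = 0.255 from edgeR), at 21.6, 21.9 and 20.6 CPM in CTL and 18.3, 20.1 and 13.6 CPM in *Prdm1*-CKO. Its groups did not overlap, and its log2 fold change was -0.30 (95% interval -0.87 to 0.27). *Tgfb2*, *Tgfb3*, *Nrros* and *Lrrc32* were picked for their roles after their values had been seen.

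Of the receptors and co-receptors, 8 of 12 were tested, 0 passed in either direction and 3 lay above 0. *Tgfbr3* (betaglycan, which presents the ligand to the type II receptor) had the smallest p, at 58.3, 59.8 and 23.1 CPM in CTL and 35.8, 23.5 and 31.3 CPM in *Prdm1*-CKO. Its log2 fold change was -0.64 (95% interval -1.48 to 0.19, unadjusted p = 0.115 from edgeR). Its order over the CTL mice was that of *Tgfbr1*, with replicates 1 and 2 high and replicate 3 low. *Acvrl1*, an endothelial type I receptor, was the member of the list whose groups did not overlap, at 20.9, 18.7 and 22.8 CPM in CTL and 17.3, 8.03 and 17.1 CPM in *Prdm1*-CKO (unadjusted p = 0.137 from edgeR).

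Smads and nuclear partners other than the members numbered 11, of which 8 were tested and *Zfyve9* was the 1 that passed. The coactivator genes *Crebbp* and *Ep300*, also picked after their values had been seen, were at 102 to 188 CPM and 103 to 128 CPM. All 14 ubiquitin and phosphatase regulators were tested, 0 passed in either direction and 9 lay above 0. The smallest p in that list was 0.179 for *Usp9x*, a deubiquitinase of *Smad4*, at 79.7, 144 and 80.6 CPM in CTL and 77.9, 68.5 and 87.8 CPM in *Prdm1*-CKO, where CTL replicate 2 alone stood high. For the non-Smad branch, 4 of 4 were tested and 0 passed. *Tab1*, which activates the kinase TAK1, had an unadjusted p of 0.0532 and a log2 fold change of -0.53 (95% interval -1.06 to 0.01), at 49.5, 83.0 and 77.5 CPM in CTL and 48.1, 43.2 and 54.4 CPM in *Prdm1*-CKO. CTL replicate 1 lay inside the *Prdm1*-CKO range and the other CTL mice above it.

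**Figure D5:**
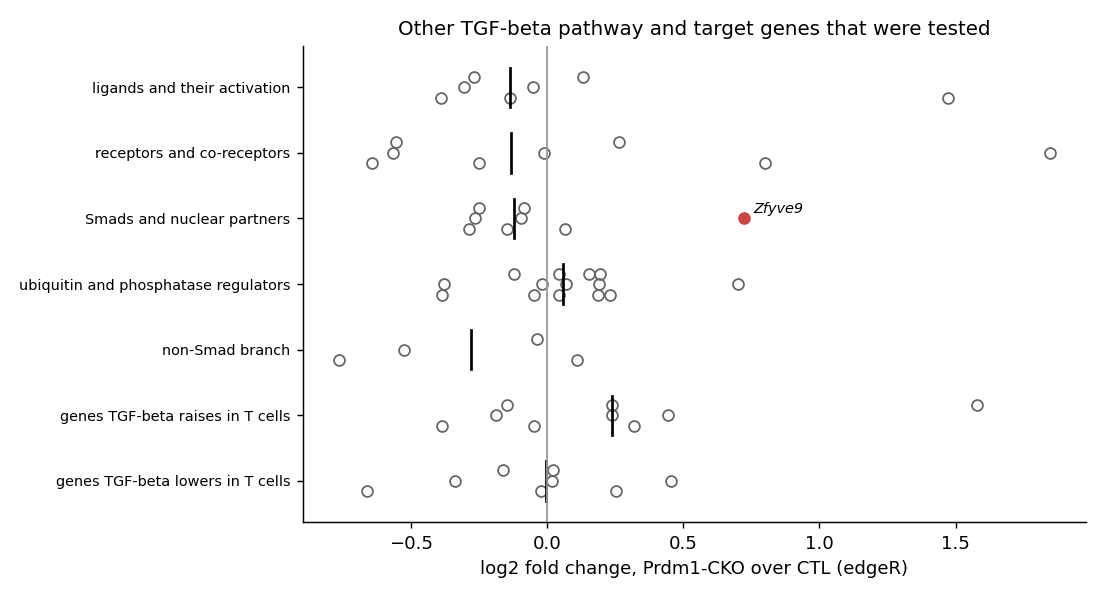
Log2 fold change of *Prdm1*-CKO over CTL for each tested gene of the 5 pathway lists and the 2 target lists (circles), with black bars at the list medians. *Zfyve9*, filled, is the 1 gene at an unadjusted p under 0.05, and circles lie on both sides of 0 in every list.

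Genes that TGF-beta is known to raise in T cells were read from a list of 10, of which 9 were tested, *Smad7* and *Skil* included. None passed at an unadjusted p under 0.05 (0 higher and 0 lower, edgeR), 5 lay above 0, and the median log2 fold change was 0.24 against 0.01 over all genes. *Foxp3* was at 171 to 176 CPM in CTL and 134 to 182 CPM in *Prdm1*-CKO. *Ldlrad4*, a feedback inhibitor that holds Smads away from the receptor, had the smallest p of the list (0.183), at 26.6, 23.0 and 39.5 CPM in CTL and 25.5, 20.9 and 21.5 CPM in *Prdm1*-CKO.

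Genes that TGF-beta is known to lower in T cells numbered 8, all tested. By edgeR 0 of them rose and 0 fell at the unadjusted threshold of 0.05, 4 lay above 0, and the median log2 fold change was -0.0023. *Gata3*, the Th2 regulator, had the smallest p (0.0552), at 205, 256 and 266 CPM in CTL and 183, 203 and 190 CPM in *Prdm1*-CKO. Its groups did not overlap, and its log2 fold change was -0.34 (95% interval -0.69 to 0.01, adjusted p = 0.996 from edgeR).

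Relatives of *Cd109* in the alpha-2-macroglobulin and complement family were looked up in a list of 7. *A2m*, *Mug1*, *Mug2* and *Pzp*, the alpha-2-macroglobulin genes, had 0 counts in every mouse, which allows up to 0.169 to 0.444 CPM depending on the library. The complement genes *C3* and *Hc* were tested and neither passed (unadjusted p = 0.469 and 0.704 from edgeR). *C3* ranged from 9.47 to 57.0 CPM. *C4b* reached 15.9 CPM in CTL replicate 2 and at most 1.13 CPM in the other mice, and it did not pass the filter.

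As a description of which genes varied alike over the 6 mice, Pearson correlations of log2 CPM were computed between *Cd109* and 11671 protein-coding genes. The mice differ in library depth and in group, and the part of either in these values was not tested. *Cd109* had 4, 0 and 6 counts in CTL and 10 in *Prdm1*-CKO replicate 3, so the prior count of 2 weighs on its log2 CPM there. The 5 highest were *Gins2* (0.975), *Cdc37* (0.974), *Ciapin1* (0.972), *Cwc15* (0.972) and *Mrpl55* (0.971), and 58 genes exceeded 0.9. *Gins2*, a subunit of the replicative helicase, ranged from 10.2 to 25.4 CPM, and *Cdc37*, a kinase co-chaperone, from 239 to 287 CPM. For *Tgfb1* the 3 highest were *Tbc1d19* (0.991), *Lias* (0.991) and *Atraid* (0.988), and 162 genes exceeded 0.9. With 6 mice such values arise for many genes.

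Markers of other splenic cells were present too. B cell markers (*Ms4a1*, *Cd79a*, *Pax5* and *Cr2*) summed to 27.0 to 53.1 CPM in CTL and 47.8 to 71.2 CPM in *Prdm1*-CKO, with 4 of 4 above 0 on the log2 scale, 0 at an unadjusted p under 0.05, and the smallest p for *Ms4a1* (0.0624). Macrophage markers (*Adgre1*, *Cd68*, *Csf1r*, *C1qa* and *Vcam1*) summed to 453 to 1268 CPM in CTL, lowest in CTL replicate 2, and 897 to 1246 CPM in *Prdm1*-CKO, with 5 of 5 above 0 and the smallest p for *Csf1r* (0.215). Plasma cell markers (*Sdc1*, *Jchain* and *Xbp1*) summed to 400 to 624 CPM in CTL and 622 to 838 CPM in *Prdm1*-CKO, and *Jchain* was higher at an unadjusted p of 0.0377. Erythroid markers (*Hbb-bs*, *Hbb-bt*, *Hba-a1* and *Alas2*) summed to 7.33, 6.40 and 15.8 CPM in CTL and 46.7, 11.7 and 34.7 CPM in *Prdm1*-CKO. Of these, *Hbb-bs* (0.0162), *Hbb-bt* (0.0455) and *Hba-a1* (0.0425) were higher at an unadjusted p under 0.05, where edgeR called 0.928% of all genes tested higher. In each of these 3 genes *Prdm1*-CKO replicate 2 lay below CTL replicate 3. In CTL, *Hbb-bt* rested on 11, 4 and 6 counts and *Hba-a1* on 34, 20 and 20. *Prdm1*-CKO replicate 1 was the highest mouse for the erythroid sum as for *Cd109*, whereas replicate 3, second for the former, was the lowest of its group for *Cd109*.

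Dendritic cell markers (*Itgax*, *Flt3*, *Zbtb46*, *Xcr1* and *Clec9a*) summed to 55.3 to 113 CPM in CTL, lowest in CTL replicate 3, and 83.7 to 123 CPM in *Prdm1*-CKO, with the smallest p for *Zbtb46* (0.0642). In CD8 T and NK cell markers (*Cd8a*, *Cd8b1*, *Ncr1* and *Klrb1c*), with sums of 32.7 to 59.2 CPM in CTL and 33.6 to 47.5 CPM in *Prdm1*-CKO, *Cd8a* was lower at an unadjusted p of 0.0270, with 0.411 to 4.98 CPM over the 6 mice. *Cd8b1* lay the other way, at up to 13.7 CPM in CTL and 14.6 to 17.1 CPM in *Prdm1*-CKO (unadjusted p = 0.153). The groups did not overlap in *Cd8a* or in *Cd8b1*, 2 of the 4 genes, against 8.42% of all genes tested. Of the 8 Tfh markers *Cd4* was lower at an unadjusted p of 0.0465, and it was the 1 whose groups did not overlap. At an unadjusted p under 0.05 edgeR called 1.42% of all genes tested lower. Regulatory T cell markers (*Foxp3*, *Il2ra*, *Ikzf2* and *Ctla4*) summed to 695 to 770 CPM in CTL and 604 to 679 CPM in *Prdm1*-CKO, with 0 of 4 above 0 and the smallest p for *Ikzf2* (0.156). Among platelet genes the smallest p was that of *Itga2b* (0.153) and among endothelial and stromal genes that of *Pecam1* (0.411). All of these p values are from edgeR, and none passed adjustment over all genes (adjusted p = 0.996). The part of other cells in the levels of *Cd109*, *Tgfbr1* and the other genes was not tested.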

How the data were processed

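RNA-seq was done by the authors on Tfh cells sorted from the spleen of 6 mice, 1 Smart-seq2 library per mouse, sequenced as paired reads of 25 bp. Per the labels and the study's methods, reads were aligned with STAR 2.4.2a to GRCm38 and counted per gene with featureCounts on GENCODE M9, and the authors deposited raw counts without normalization. Strandedness and the treatment of multiply aligned reads are not given in the sources used here. The exons of the 10 genes overlap no other annotated gene.

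The files list 53379 gene identifiers. GENCODE M21 (same build) gave symbols, exon lengths and positions and holds 53274 of them, 50604 in the same version. The version of *Smad2* differs, so its coordinates are not given, but its M21 exon length was used for its level per kb and for its ratio to *Smad3*. The members and gene lists were chosen with earlier results of these data known.

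Counts were fitted with edgeR 4.0.16 in R 4.3.3 (TMM, filterByExpr, quasi-likelihood F test, two-sided, no covariate), with Benjamini-Hochberg adjustment over the 14555 genes tested. Standard errors were derived from the test, as the absolute log2 fold change divided by the square root of the F statistic. The 95% intervals added the t quantile at the total degrees of freedom of the test. Log2 CPM used a prior count of 2. An exact permutation test of 3 against 3 mice cannot go below p = 0.1, so none was run. Genes named are the 10 members, *Prdm1*, in each list the genes at an unadjusted p under 0.05 or else the one with the smallest p, and the genes most correlated with *Cd109* and *Tgfb1*. Others were named after their values were seen, and 3 genes of the lists are not reported here. Alternatives were DESeq2 1.42.0 size factors, its Wald test, the replicate number as a block, a filter of at least 10 counts in each mouse or none at all, the longest transcript as gene length, and each mouse left out in turn. Total counts per mouse were 7147601 to 16973392, and no 2 libraries were identical.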

Additional observations from a re-analysis of the deposited data

How the results depend on the processing

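The log2 fold changes of *Cd109*, *Tgfbr1*, *Tgfbr2*, *Smad3*, *Smad7*, *Ski* and *Skil* kept their sign in all 11 alternative fits, or in those in which the gene passed the filter, and those of *Tgfb1*, *Smad2* and *Smad4* did so except when a mouse was left out. *Tgfb1* ranged from -0.073 to 0.31, with -0.043 and -0.073 when CTL replicate 1 or 2 was left out. *Smad2* ranged from -0.11 to 0.12, with 0.010 and 0.0091 when the same mice were left out and 0.12 without *Prdm1*-CKO replicate 2. *Smad4* ranged from -0.21 to 0.34, the lower end being without CTL replicate 3, and -0.16 when *Prdm1*-CKO replicate 2 was left out. The adjusted p of the 9 pathway genes lay between 0.760 and 1.00 over all alternatives. Of the 9, 1 gene, *Tgfbr1* without CTL replicate 3, passed an unadjusted p of 0.05 (0.00514 from edgeR, log2 fold change -0.97). In that fit 335 of all genes were higher and 617 lower at this threshold. Genes whose groups did not overlap numbered 0 to 2 of the 9 when a mouse was left out (*Smad7* without CTL replicate 1, *Tgfb1* and *Tgfbr1* without CTL replicate 3, *Smad3* without *Prdm1*-CKO replicate 1, *Smad2* without *Prdm1*-CKO replicate 2), where 14.3% to 25.1% of all genes tested did not overlap. With the longest transcript as length, the level of *Tgfb1* was 4.21 and that of *Skil* 8.83 CPM per kb.

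Over all genes, DESeq2's Wald test called 7 genes higher and 2 lower (*Igkv4-70* and *Prps1l1*) at an adjusted p under 0.05, and edgeR without the filter called 1 higher (*Ighv5-9-1*). At an unadjusted p under 0.05, the Wald test called 264 higher and 417 lower, edgeR without the filter 426 and 510, and edgeR with a mouse left out 58 to 580 higher and 107 to 617 lower. The counts of pathway genes were 0 higher and 2 lower (*Acvr1c* and *Tab1*) without the filter, 1 lower (*Acvr1c*) in the Wald test, and 0 to 3 higher and 0 to 2 lower with a mouse left out, where the 3 were *Zfyve9*, *Acvr1* and *Thbs1* without CTL replicate 1. With the replicate block, 0 pathway genes were higher, as *Zfyve9* had an unadjusted p of 0.0559. Same-numbered mice are not said to be paired, and the correlations of their deviations from the group means were 0.158, 0.0282 and 0.0160. The causes of these differences were not tested.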
